A study of Mus musculus with 30 samples.

Results

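The chromatin regulators of the germinal centre described here were 10 genes: Ezh2, Eed, Suz12, Kmt2d, Crebbp, Ep300, Dnmt1, Uhrf1, Dnmt3a and Tet2. They were chosen by name, with earlier results of these data known. Taken were all probe sets to which the array annotation gives 1 of these symbols and no other. This yielded 12 probe sets for 10 of the 19937 genes measured. Eed and Kmt2d had a second probe set, and the brighter of each pair was used. All 10 genes passed the filter on dim probe sets in both experiments. For 9 of them every array lay above the array median. Tet2 did so on 15 of 18 arrays of the first experiment and 8 of 12 of the second, where no array of GFP- dark zone cells was among the 8.

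EZH2, EED and SUZ12 form the core of Polycomb repressive complex 2 (PRC2), which methylates a lysine of histone H3 and keeps genes silent. In mouse B cells Ezh2 is needed for germinal centres to form, and activating EZH2 mutations recur in human lymphomas of germinal centre origin. KMT2D, a histone methyltransferase of enhancers, and CREBBP and EP300, which acetylate histones there, act on the opposite side and are often inactivated in the same lymphomas. DNMT1 copies DNA methylation onto the new strand after replication, and UHRF1 brings it to half-methylated sites. DNMT3A methylates unmodified DNA, whereas TET2 oxidises methylated cytosine, the first step of demethylation. Loss of Tet2 in mouse B cells enlarges germinal centres and holds back plasma cells.

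RNA came from B cells of CeGFP BALB/c mice 10 days after infection with Nippostrongylus brasiliensis, sorted from mesenteric lymph nodes. All groups carry the knock-in, an IRES-GFP cassette behind the membrane IgE transcript, so GFP marks IgE cells and those IgG1 cells whose other, unused heavy chain chromosome has also been joined to the epsilon region. Every array was made from 3 pooled mice, with 2 ng RNA amplified. The labels do not say whether arrays with the same replicate number came from a shared sort. The first experiment held 4 arrays of IgE plasma cells (PC, CD95+ CD138+), 2 of GFP+ IgG1 PC, and 3 each of IgE germinal centre (GC, B220+ CD95+ CD138-) cells, GFP+ IgG1 GC cells, GFP- IgG1 GC cells and naive B cells (B220+ CD95- CD138-, without IgG1 or IgE). The second held 3 arrays each of dark zone (DZ, CXCR4 high CD86 low) and light zone (LZ, CXCR4 low CD86 high) IgG1 GC cells, GFP+ and GFP-. Ages were not given in the sources used here. Values are log2 signals after robust multi-array averaging, differences are on the log2 scale and negative where the cells named first had the lower level, and levels were compared within 1 gene and 1 experiment only.

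Array medians lay between 5.28 and 5.47. Naive replicate 1 correlated less with its own group (mean r 0.892) than the other naive arrays (0.909 and 0.910), and GFP+ IgG1 GC replicate 3 (0.949) less than the other arrays of its group (0.962 each). Results that changed without these arrays are given with and without them. The labels fitted their markers: Bcl6, the master regulator of GC cells, was higher in GC than in naive cells by 1.55, 1.64 and 1.64 (IgE, GFP+ IgG1 and GFP- IgG1 GC cells), Prdm1, the plasma cell regulator, was 4.35 higher in IgE PC than in IgE GC cells, and Pax5, the B cell regulator, was lower there (-4.68). Naive arrays carried signal of other cells: Tyrobp, a myeloid and natural killer cell adaptor, was at 5.42 to 6.0 in the means of the PC and GC groups, against 8.43 ± 0.28 in naive cells, and Siglech, a plasmacytoid dendritic cell receptor, at 4.77 to 5.09 in those groups, against 6.70 ± 0.96 in naive cells (SD, n = 3). The mean of the stromal marker list was 5.30 to 5.75 on PC and GC arrays and 5.86 to 6.21 on naive arrays, and that of the macrophage and dendritic cell list 4.88 to 5.55 on PC, 4.98 to 5.32 on GC and 5.31 to 5.77 on naive arrays. T cell markers averaged 5.37 to 5.95 on PC, 4.76 to 5.46 on GC and 5.20 to 5.87 on naive arrays, and granulocyte and mast cell markers 4.15 to 4.64, 3.85 to 4.13 and 4.20 to 4.85 in the same order. None of the 4 natural killer cell markers lay above the array median in any group. The part of these cells in the differences below was not tested.

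GC cells were first set against naive B cells, to describe which regulators differ between these cells. A gene was called where limma gave it an adjusted p below 0.05. The 10 genes and the lists were chosen with earlier results of these data known. Counts of them beside the share of all genes are therefore descriptions. In IgE GC cells 6 of the 10 genes were called higher and 1 lower than in naive cells, where 26.7% of the 12098 genes tested were called (19.3% higher, 7.4% lower). In GFP+ IgG1 GC cells 5 were higher and 1 lower, against a background of 23.3% called (16.8% higher, 6.43% lower). In GFP- IgG1 GC cells 5 were higher and 0 lower, against 29.8% (20.5% higher, 9.35% lower). The arrays of 7 genes did not overlap with those of naive cells in each comparison, where 39%, 31.8% and 43.1% of all genes did not. Without the arrays that stood apart the counts were 5 higher and 2 lower in each of the 3 comparisons. The median difference of the 10 genes was 0.95, 0.80 and 0.97, and that of all genes tested 0.06, 0.02 and 0.07. The 3 comparisons share the naive arrays, so their values are given side by side and are not separate evidence. In sorted bulk RNA, fewer cells of a type and less RNA per cell cannot be told apart.

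Plasma cells were then set against GC cells of the same isotype, which asks how the same regulators differ between these cells. Whether the PC arose from these GC cells was not tested. In IgE PC 1 gene was higher and 7 were lower than in IgE GC cells, where 23.6% of all genes were called (10.2% higher, 13.4% lower). In IgG1 PC 1 was higher and 6 were lower than in GFP+ IgG1 GC cells, against 21.4% (8.32% higher, 13.1% lower); without the arrays that stood apart 0 were higher and 8 lower. The median difference was -0.74 and -0.65 for the 10 genes, and -0.03 and -0.01 for all genes. Set against naive cells, each PC group had 4 genes higher and 2 lower. Of all genes 37% (IgE, with 23% higher and 14.1% lower) and 29.3% (IgG1, with 17.1% higher and 12.2% lower) were called. Without the arrays that stood apart, Suz12 lost its call in IgG1 PC (0.58, adjusted p = 0.0574). In IgE PC Ep300 then lost its call (-0.37, 0.1) and Crebbp gained one (-0.45, 0.0351). PC and GC arrays did not overlap for 8 genes in IgE and 10 in IgG1 cells (35.4% and 46.5% of all genes), and PC and naive arrays for 5 and 7 (36.2% and 41.7%). The PC comparisons share GC or naive arrays with those above.

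**Figure D1:**
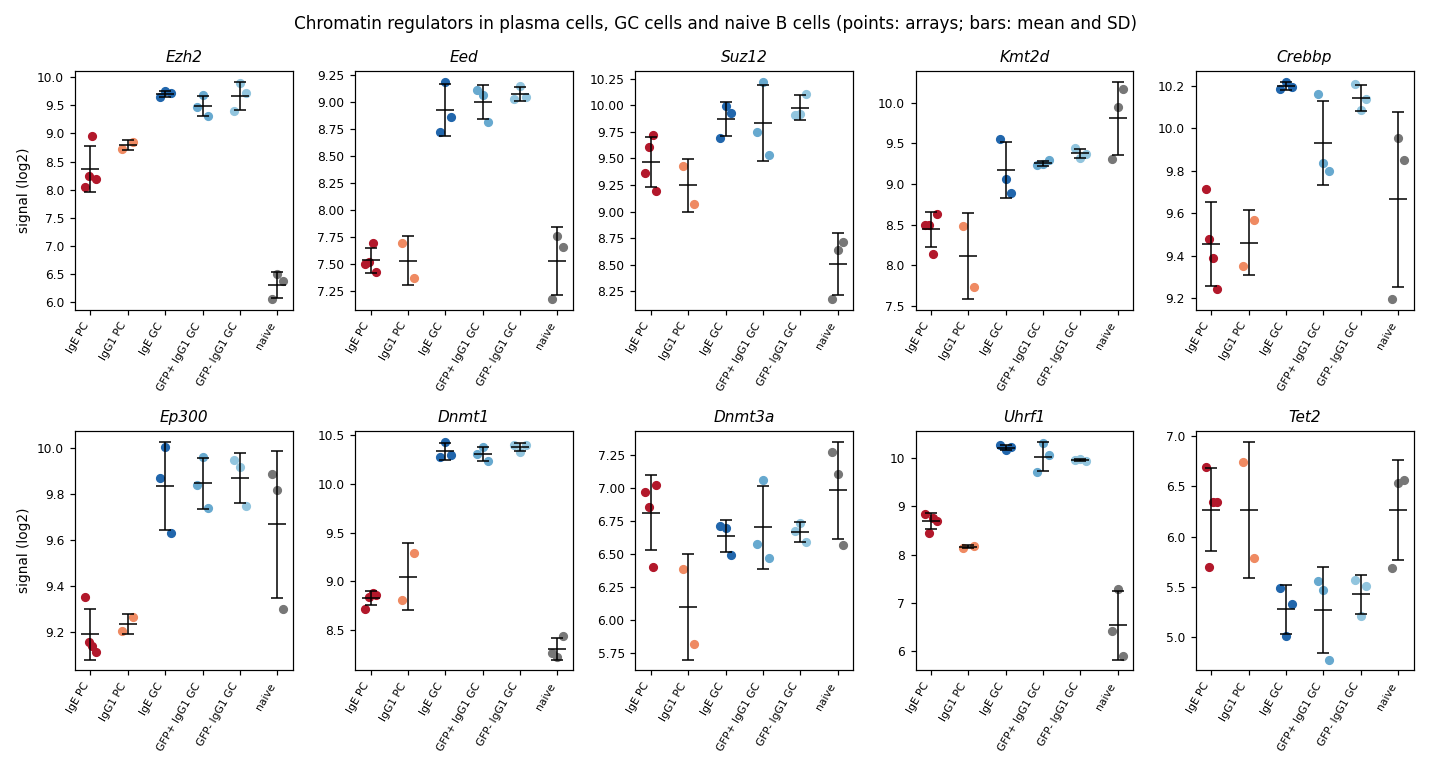
Log2 signal of the 10 genes on each array of the first experiment (points), with group mean and SD (bars), for IgE PC, IgG1 PC, the 3 GC groups and naive cells; each panel has its own axis, which does not start at 0. Ezh2, Dnmt1 and Uhrf1 are highest in all GC groups, between these and naive cells in PC, and lowest in naive cells, while Tet2 is lowest in the GC groups.

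Ezh2, the catalytic subunit of PRC2, separated the 3 cell stages with no overlap. IgE PC arrays had 8.05, 8.24, 8.96 and 8.20, and IgG1 PC arrays 8.73 and 8.86. GC arrays had 9.64, 9.76 and 9.71 (IgE), 9.46, 9.68 and 9.31 (GFP+ IgG1) and 9.40, 9.89 and 9.72 (GFP- IgG1), and naive arrays 6.06, 6.50 and 6.39. All GC arrays lay above all PC arrays, and these above all naive arrays. Ezh2 was higher in GC than in naive cells by 3.39 ± 0.21 in IgE cells (SE; 95% interval 2.94 to 3.85, adjusted p = 5.18e-09), 3.17 in GFP+ and 3.35 in GFP- IgG1 cells. In IgE PC it was lower than in IgE GC cells with a difference of -1.34 ± 0.20 (adjusted p = 8.1e-05) and still higher than in naive cells by 2.05 ± 0.20 (adjusted p = 4.22e-07). In IgG1 PC the differences were -0.69 ± 0.24 from GFP+ IgG1 GC cells (adjusted p = 0.0496) and 2.48 ± 0.24 from naive cells. The first of these was called in 5 of 13 alternatives: it was -0.70 and -0.59 without GFP+ IgG1 GC replicate 1 or 2 (adjusted p = 0.0945 and 0.152), and -0.63 and -0.75 without IgG1 PC replicate 1 or 2 (0.196 and 0.119).

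Eed, which binds the methylated histone and stimulates the complex, was high in GC cells alone. IgE PC arrays had 7.50, 7.52, 7.69 and 7.43, and IgG1 PC arrays 7.69 and 7.37. GC arrays had 8.72, 9.19 and 8.86 (IgE), 9.11, 9.06 and 8.82 (GFP+ IgG1) and 9.03, 9.15 and 9.05 (GFP- IgG1), and naive arrays 7.18, 7.76 and 7.66. PC and naive ranges overlapped, and every GC array lay above both. Eed was higher in GC than in naive cells by 1.39 ± 0.18 in IgE cells (adjusted p = 1.95e-05), 1.47 in GFP+ and 1.54 in GFP- IgG1 cells. It was lower in IgE PC than in IgE GC cells with a difference of -1.39 ± 0.17 (adjusted p = 7.89e-06), and lower in IgG1 PC than in GFP+ IgG1 GC cells with a difference of -1.47 ± 0.20. Against naive cells both PC groups differed by 0.00, with 95% intervals of -0.35 to 0.36 and -0.42 to 0.42. The second Eed probe set lay above the array median on 1 of 30 arrays and gave none of these calls; with it, or with the mean of the probe sets, Eed was not called in IgG1 cells.

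Suz12, the scaffold of PRC2, had smaller differences between PC and GC cells than Ezh2 and Eed. IgE PC arrays had 9.36, 9.60, 9.72 and 9.19, and IgG1 PC arrays 9.43 and 9.07. GC arrays had 9.69, 9.99 and 9.93 (IgE), 9.75, 10.22 and 9.53 (GFP+ IgG1) and 9.91, 9.91 and 10.11 (GFP- IgG1), and naive arrays 8.18, 8.64 and 8.71. Naive arrays lay below all others, whereas the ranges of IgE PC and of GC cells overlapped. Suz12 was higher in GC than in naive cells by 1.36 ± 0.21 (IgE, adjusted p = 0.000114), 1.32 (GFP+ IgG1) and 1.47 (GFP- IgG1). In PC it was not called against GC cells: -0.40 in IgE cells (95% interval -0.81 to 0.01, adjusted p = 0.161) and -0.58 in IgG1 cells (-1.07 to -0.10, adjusted p = 0.0854), where it was -0.73 (adjusted p = 0.041) without GFP+ IgG1 GC replicate 3. Against naive cells it was higher by 0.96 ± 0.19 in IgE PC (adjusted p = 0.000787) and 0.74 ± 0.23 in IgG1 PC (adjusted p = 0.0218). The IgG1 value was 0.56 without IgG1 PC replicate 1 (adjusted p = 0.185), 0.58 without naive replicate 1 (0.0766) and 0.49 after a further quantile normalization (0.0849). The IgG1 call was also lost when only the groups compared were fitted (0.169).

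The accessory PRC2 genes fell into opposite patterns. Of 8 tested, 4 were higher and 2 lower than in naive cells in each GC group, with a median difference of 0.57, 0.65 and 0.63. Among all genes 26.7%, 23.3% and 29.8% were called in these comparisons. Phf19 and Mtf2, Polycomb-like proteins that help PRC2 bind chromatin, had the largest rises. Phf19 had 5.50, 5.39, 6.39 and 6.21 in IgE PC and 5.29 and 6.27 in IgG1 PC, 8.20, 8.43 and 8.24 in IgE GC cells, and 5.03, 4.99 and 6.19 in naive cells. It was higher by 2.89, 2.74 and 2.97 in IgE, GFP+ IgG1 and GFP- IgG1 GC cells against naive cells (adjusted p = 8.91e-06, 1.77e-05 and 7.23e-06). Mtf2 was higher by 2.13, 2.01 and 2.17. GC arrays of both genes lay above every PC and naive array. The histone-binding subunit Rbbp7 was higher by 1.45, 1.44 and 1.33, and Rbbp4 by 0.93, 0.83 and 0.93. The GFP+ Rbbp4 call was lost without GFP+ IgG1 GC replicate 2 (adjusted p = 0.054).

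Ezh1 and Phf1 moved the other way. Ezh1, the paralogue of Ezh2 with weaker activity, was lower than in naive cells with a difference of -1.34, -0.94 and -1.14 in IgE, GFP+ IgG1 and GFP- IgG1 GC cells, and Phf1, another Polycomb-like gene, with a difference of -1.84, -1.58 and -1.92. Ezh1 had 6.96, 6.63 and 6.74 in IgE GC cells, against 8.76, 8.19 and 7.39 in naive cells, so all IgE GC arrays lay below all naive arrays. Without naive replicate 1, the array that stood apart, Ezh1 was -0.62 in GFP+ (adjusted p = 0.16) and -0.82 in GFP- IgG1 GC cells (0.053). Its GFP+ call was also lost without GFP+ IgG1 GC replicate 1, 2 or naive replicate 2. Jarid2, a targeting subunit, and Aebp2 were not called in GC against naive cells.

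Of the same 8 genes, 1 was higher and 4 lower in PC than in GC cells of each isotype, where 23.6% (IgE) and 21.4% (IgG1) of all genes were called. Phf19 was lower with a difference of -2.42 in IgE PC and -2.36 in IgG1 PC (adjusted p = 2.3e-05 and 0.000224), and Mtf2 with a difference of -1.83 and -1.95. Neither was called between PC and naive cells (0.47 and 0.38 for Phf19, 0.30 and 0.07 for Mtf2). Rbbp4 (-0.67 and -0.92) and Rbbp7 (-0.61 and -0.86) were lower and Jarid2 higher (0.92 and 1.24). The calls of Rbbp4, Rbbp7 and Jarid2 were each lost in IgE cells without IgE GC replicate 2 (adjusted p = 0.12, 0.055 and 0.17) and in IgG1 cells without IgG1 PC replicate 1 (0.14, 0.077 and 0.13), and those of Rbbp4 and Jarid2 in IgE cells also without some other single arrays. Against naive cells Phf1 stayed lower in both PC groups (-1.62 and -2.01), as did Ezh1 (-0.95 and -1.16); the Ezh1 difference was -0.63 in IgE PC (adjusted p = 0.095) and -0.84 in IgG1 PC (0.06) without naive replicate 1.

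**Figure D2:**
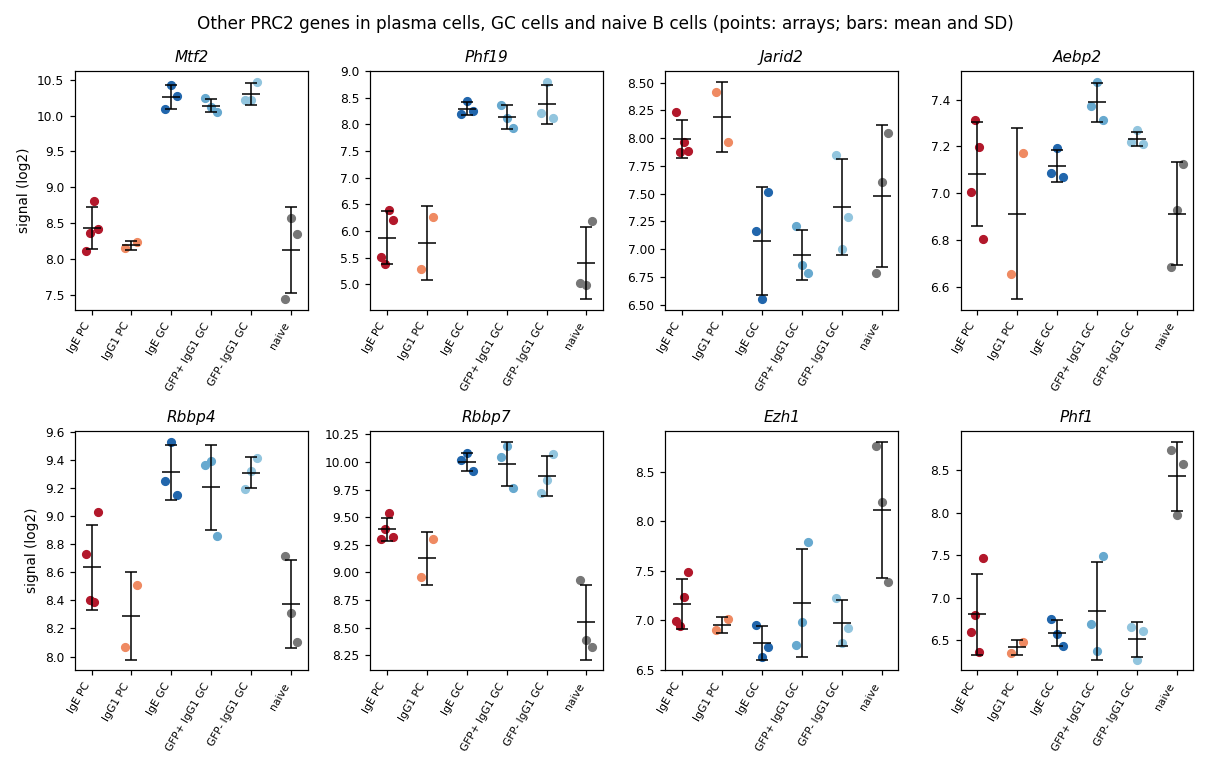
Log2 signal of the 8 other PRC2 genes on each array of the first experiment (points), with group mean and SD (bars), for IgE PC, IgG1 PC, the 3 GC groups and naive cells; each panel has its own axis, which does not start at 0. Phf19 and Mtf2 are high in the GC groups only, Ezh1 and Phf1 have their highest mean in naive cells, and Jarid2 has its highest mean in PC.

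Kmt2d was the 1 regulator of the 10 called lower in PC than in both GC and naive cells in both isotypes; Crebbp and Ep300 also had lower means in PC than in either, but not all of these differences were called. IgE PC arrays had 8.50, 8.50, 8.14 and 8.64, and IgG1 PC arrays 8.49 and 7.74. GC arrays had 9.56, 9.07 and 8.89 (IgE), 9.23, 9.25 and 9.29 (GFP+ IgG1) and 9.44, 9.32 and 9.37 (GFP- IgG1), and naive arrays 9.30, 9.95 and 10.17. Every PC array lay below every GC and naive array, and naive replicate 1 lay within the GC range. Kmt2d was lower in IgE PC than in IgE GC cells with a difference of -0.73 ± 0.22 (adjusted p = 0.024) and in IgG1 PC than in GFP+ IgG1 GC cells with a difference of -1.15 ± 0.27 (adjusted p = 0.00476). The IgE call was lost without IgE GC replicate 1 (-0.54, adjusted p = 0.149) or IgE PC replicate 3 (-0.63, 0.0698), and the IgG1 call without IgG1 PC replicate 2 (-0.77, 0.108). Against naive cells it was lower with a difference of -1.36 ± 0.22 in IgE PC (adjusted p = 0.000118) and -1.70 ± 0.27 in IgG1 PC (0.000108).

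In GC cells Kmt2d was -0.64, -0.55 and -0.43 from naive cells (IgE, GFP+ IgG1, GFP- IgG1), with adjusted p = 0.0582, 0.108 and 0.175. Without naive replicate 1 the differences were -0.89, -0.80 and -0.68, and all were called (adjusted p = 0.00978, 0.0191 and 0.0412); they were also called after a further quantile normalization. The second Kmt2d probe set averaged 8.49 in IgE PC and 8.45 in IgG1 PC, 9.02, 8.98 and 9.07 in the GC groups, and 9.32 in naive cells, the same order of stages. With it the difference between IgG1 PC and GFP+ IgG1 GC cells was -0.52 in place of -1.15 and was not called (adjusted p = 0.0524). With the mean of both probe sets, Kmt2d was called in IgE GC against naive cells (-0.47, adjusted p = 0.0476).

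Among 14 other genes of the KMT2 family and its shared subunits, 1 was higher and 2 lower in IgE PC than in IgE GC cells, and 0 higher and 4 lower in IgG1 PC. These counts are close to the share of all genes called, 23.6% (IgE) and 21.4% (IgG1), so they show no change of the family as a whole. Kmt2a, which encodes the methyltransferase MLL, was lower with a difference of -1.44 and -1.60 (adjusted p = 1.13e-05 and 3.21e-05), and also lower than in naive cells, with a difference of -0.93 and -1.19. Paxip1, a subunit of the KMT2D complex, was lower with a difference of -0.77 and -0.88 in PC than in GC cells; the IgG1 value was -0.54 without IgG1 PC replicate 1 (adjusted p = 0.13). Against naive cells GC cells had 1, 1 and 2 of the 14 genes higher and 1 lower in each group, where 26.7%, 23.3% and 29.8% of all genes were called. Paxip1 was higher by 0.83, 0.73 and 0.69, of which the last 2 were 0.54 and 0.43 after a further quantile normalization (adjusted p = 0.052 and 0.11), and Setd1b lower with a difference of -1.58, -1.32 and -1.31. The Setd1b calls were lost without naive replicate 3 in all groups (-1.20, -0.94 and -0.94, adjusted p = 0.051, 0.13 and 0.12), and in IgG1 cells without some other single arrays.

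The acetyltransferases Crebbp and Ep300 had their lowest means in PC, and between GC and naive cells only Crebbp in IgE GC cells was called. Crebbp arrays had 9.71, 9.48, 9.39 and 9.24 in IgE PC and 9.35 and 9.57 in IgG1 PC. GC arrays had 10.19, 10.22 and 10.19 (IgE), 10.16, 9.84 and 9.80 (GFP+ IgG1) and 10.21, 10.09 and 10.14 (GFP- IgG1), and naive arrays 9.19, 9.95 and 9.85. GC arrays lay above PC arrays, and naive arrays spanned much of the whole range. Crebbp was lower in IgE PC than in IgE GC cells with a difference of -0.74 ± 0.18 (adjusted p = 0.00492) and was -0.47 in IgG1 PC (adjusted p = 0.134). That IgG1 value was -0.54 once both arrays that stood apart were left out (adjusted p = 0.0388) and -0.57 after a further quantile normalization (0.0498). Crebbp was higher in IgE GC than in naive cells by 0.53 ± 0.19 (adjusted p = 0.0473), but was 0.30 (0.221) without naive replicate 1, and 0.52 to 0.54 (0.0906 to 0.113) without any 1 IgE GC array. It was 0.27 and 0.48 in GFP+ and GFP- IgG1 GC cells (adjusted p = 0.334 and 0.0674). Against naive cells Crebbp was at -0.21 in each PC group (adjusted p = 0.374 and 0.533). The IgE value was -0.45 without naive replicate 1 (0.038) and -0.53 after a further quantile normalization (0.0179), and was then called. When only the groups compared were fitted, the IgE GC call of Crebbp was lost (0.17).

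Ep300 arrays had 9.35, 9.16, 9.14 and 9.11 in IgE PC and 9.20 and 9.26 in IgG1 PC. GC arrays had 9.87, 10.01 and 9.63 (IgE), 9.84, 9.96 and 9.74 (GFP+ IgG1) and 9.95, 9.92 and 9.75 (GFP- IgG1), and naive arrays 9.89, 9.82 and 9.30. GC arrays lay above PC arrays, and naive replicate 3 lay within the PC range and the other naive arrays within the GC range. Ep300 was lower in PC than in GC cells with a difference of -0.65 ± 0.16 in IgE cells (adjusted p = 0.00534) and -0.61 ± 0.19 in IgG1 cells (0.0258), the second of which was lost without GFP+ IgG1 GC replicate 1 or 2 or without either IgG1 PC array (adjusted p = 0.0583 to 0.12). Between GC and naive cells it was not called (0.17, 0.18 and 0.20; adjusted p = 0.471, 0.468 and 0.361). Against naive cells it was lower in IgE PC with a difference of -0.48 ± 0.16 (adjusted p = 0.0236), and -0.37 without naive replicate 1 (0.103); this call was also lost without naive replicate 2 or IgE PC replicate 3 or 4. In IgG1 PC the value was -0.43 (0.0958), and -0.72 after a further quantile normalization (0.00785). When only the groups compared were fitted, the Ep300 calls were lost for IgG1 PC against GC cells (0.0806) and IgE PC against naive cells (0.112).

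Among 8 other histone acetyltransferases, 1, 1 and 2 were higher and 1 lower in each GC group than in naive cells. Against GC cells, 1 was higher and 2 lower in IgE PC, with 0 higher and 1 lower in IgG1 PC. The shares of all genes called were 26.7%, 23.3% and 29.8% for the GC groups, and 23.6% and 21.4% for IgE and IgG1 PC. Kat6a, the MOZ acetyltransferase, was lower in PC with a difference of -0.97 and -0.85; the IgG1 value was -0.62 without IgG1 PC replicate 2 (adjusted p = 0.14). Hat1, which acetylates newly made histone H4, was higher in GC than in naive cells by 1.54, 1.35 and 1.43, the GFP+ call being lost without naive replicate 1 (1.18, adjusted p = 0.056).

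**Figure D3:**
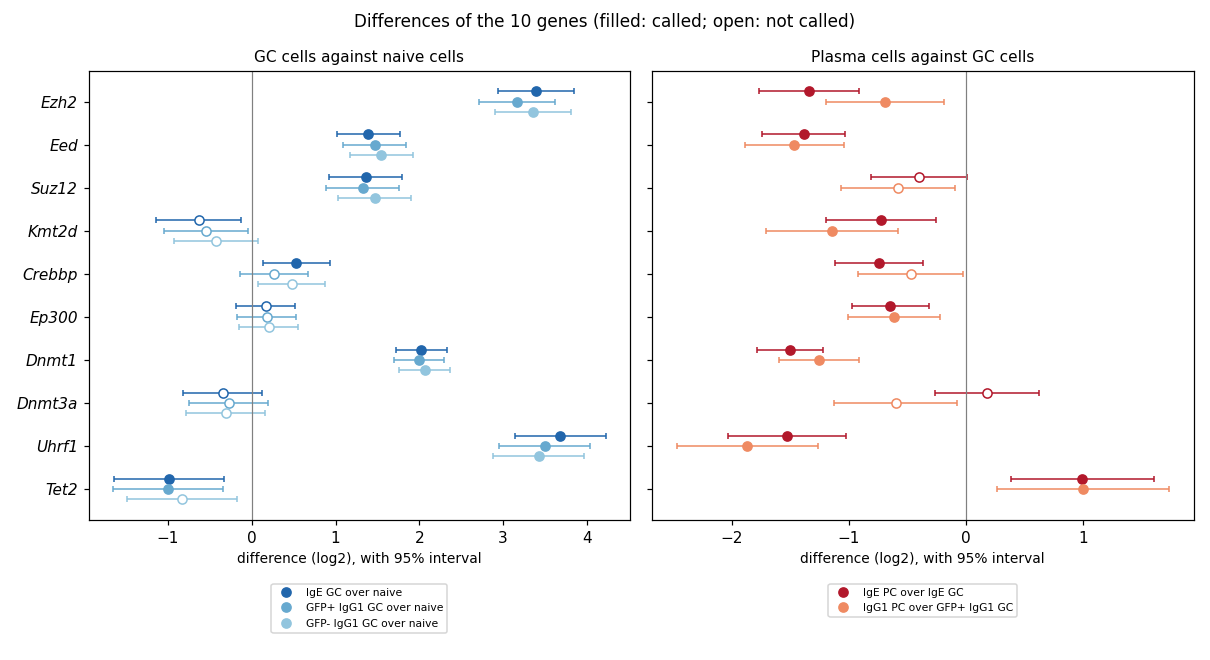
Log2 differences of the 10 genes with 95% intervals from limma, for the 3 GC groups over naive cells (left) and for PC over GC cells of each isotype (right); filled points have an adjusted p under 0.05. Ezh2, Dnmt1 and Uhrf1 lie to the right of 0 at left and to the left of 0 at right, and Tet2 does the opposite.

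The maintenance methylation pair differed in the same direction in GC against naive cells and in PC against GC cells. Dnmt1 arrays had 8.72, 8.84, 8.88 and 8.86 in IgE PC and 8.81 and 9.29 in IgG1 PC. GC arrays had 10.27, 10.43 and 10.29 (IgE), 10.30, 10.38 and 10.23 (GFP+ IgG1) and 10.39, 10.33 and 10.40 (GFP- IgG1), and naive arrays 8.27, 8.23 and 8.44. The 3 stages did not overlap, and the 9 GC arrays lay within a narrow band. Dnmt1 was higher in GC than in naive cells by 2.02 ± 0.14 (IgE, adjusted p = 2.04e-08), 2.00 (GFP+ IgG1) and 2.06 (GFP- IgG1). It was lower in IgE PC than in IgE GC cells with a difference of -1.51 ± 0.13 (adjusted p = 3.2e-07) and in IgG1 PC than in GFP+ IgG1 GC cells with a difference of -1.26 ± 0.16 (2.06e-05). Against naive cells it was higher by 0.52 ± 0.13 in IgE PC (adjusted p = 0.00603) and 0.74 ± 0.16 in IgG1 PC (0.00198). The IgE value was 0.24 after a further quantile normalization (0.198), and the IgG1 value 0.50 without IgG1 PC replicate 2 (0.0628). The IgG1 call was also lost when only the groups compared were fitted (0.148).

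Uhrf1 arrays had 8.85, 8.46, 8.76 and 8.70 in IgE PC and 8.14 and 8.18 in IgG1 PC. GC arrays had 10.27, 10.16 and 10.23 (IgE), 9.71, 10.31 and 10.07 (GFP+ IgG1) and 9.96, 9.98 and 9.94 (GFP- IgG1), and naive arrays 6.42, 7.29 and 5.89. Here too the 3 stages did not overlap, and IgG1 PC arrays lay below IgE PC arrays. Uhrf1 had the largest GC difference of the 10 genes: 3.68 ± 0.25 in IgE cells (95% interval 3.15 to 4.22, adjusted p = 1.51e-08), 3.50 in GFP+ and 3.42 in GFP- IgG1 cells. It was lower in PC than in GC cells with a difference of -1.53 ± 0.24 in IgE cells (adjusted p = 0.000123) and -1.87 ± 0.28 in IgG1 cells (0.000124), and still higher than in naive cells by 2.16 and 1.63 (1.74e-06 and 0.000309).

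Other genes of DNA methylation followed in part. Of 9 tested, 5, 4 and 5 were higher in IgE, GFP+ IgG1 and GFP- IgG1 GC cells than in naive cells, and 0, 0 and 1 lower. Among all genes 19.3%, 16.8% and 20.5% were higher and 7.4%, 6.43% and 9.35% lower. Hells, a remodeller that aids DNA methylation, was higher by 4.10, 4.08 and 4.15 in GC cells and by 2.52 and 2.56 in IgE and IgG1 PC. Mbd4, a glycosylase that repairs deaminated methylcytosine, was higher in GC cells by 1.98, 1.90 and 1.95, and Mbd2, a methyl-DNA reader, by 1.55, 1.13 and 1.34. In PC 0 were higher and 5 (IgE) or 3 (IgG1) lower than in GC cells, where 13.4% and 13.1% of all genes were lower. Tet3, which has the same activity as TET2, was lower with a difference of -2.14 and -2.44, and lower than in naive cells with a difference of -2.10 and -2.44. Mbd4 was lower with a difference of -2.18 in IgE PC, and Mbd2 with a difference of -1.64 in IgE PC and -0.91 in IgG1 PC, the last of which was -0.63 without IgG1 PC replicate 1 (adjusted p = 0.096).

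Genes of cell division were higher than in naive cells, as were Ezh2, Dnmt1 and Uhrf1, but only part of them were called lower in PC than in GC cells. Of 24 cell cycle genes, 24, 23 and 24 were higher in IgE, GFP+ IgG1 and GFP- IgG1 GC cells than in naive cells (median difference 2.86, 2.70 and 2.80). In each PC group 23 were higher (2.49 and 2.48). Among all genes 19.3%, 16.8% and 20.5% were higher in the GC groups, and 23% and 17.1% in IgE and IgG1 PC. Between PC and GC cells 12 (IgE) and 7 (IgG1) were lower and 0 higher, where 13.4% and 13.1% of all genes were lower. The mean level of the list was 8.29 to 8.86 on IgE PC and 8.28 to 8.79 on IgG1 PC arrays, 8.90 to 9.25 on GC arrays and 5.72 to 5.95 on naive arrays. Mki67, expressed in dividing cells, was at 10.60 ± 0.05 in IgE PC (SD, n = 4), 10.97 ± 0.02 in IgE GC cells and 4.91 ± 0.05 in naive cells (n = 3 each), a difference of -0.37 between IgE PC and IgE GC cells. The replication helicase genes Mcm2 and Mcm3 were each lower with a difference of -1.25 in IgE PC than in IgE GC cells, and with a difference of -0.81 and -1.21 in IgG1 PC. The share of cycling cells in the differences of the chromatin genes was not tested.

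Ezh2, Eed, Suz12, Dnmt1 and Uhrf1 were called higher in every GC group than in naive cells. Eed lost calls only under the alternatives that use its dim second probe set. The other 4 genes have 1 probe set each, so those alternatives leave their values unchanged. The promoters of all 10 genes were read from RefSeq (GRCm38.p6), as 250 bases before to 50 bases after each annotated start. They were searched on both strands for 3 sequences of 8 bases, of the kind bound by E2F factors, which drive genes of DNA replication: TTTGGCGC, TTTCCCGC and TTTCGCGC. At least 1 of these occurred in 4 of the 10 genes, Ezh2, Suz12, Dnmt1 and Uhrf1, and in 2.12% of 27025 genes with such windows. None occurred in the windows of Eed, Kmt2d, Crebbp, Ep300, Dnmt3a or Tet2. TTTGAA, the core of the cell cycle homology region element, occurred in Eed, Suz12 and Dnmt1 and in 20.2% of all genes. Each site of the first 3 sequences is shown with its surroundings, 30 bases 5′ to 3′ on the strand of the gene, with the matched letters in capitals. Sites lie at chr6:47595009-47595038 (minus strand), chr11:79992876-79992905 (plus), chr9:20952574-20952603 and chr9:20952824-20952853 (both minus) and chr17:56304117-56304146 (plus), in the order of the lines. The second Dnmt1 site holds TTTCGCGC on the opposite strand. A match is a description of letters and no evidence of binding.
Ezh2: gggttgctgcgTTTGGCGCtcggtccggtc
Suz12: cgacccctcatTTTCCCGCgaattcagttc
Dnmt1, first site: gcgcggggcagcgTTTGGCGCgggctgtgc
Dnmt1, second site: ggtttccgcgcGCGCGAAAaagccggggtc
Uhrf1: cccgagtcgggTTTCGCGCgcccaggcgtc

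Tet2 was the 1 regulator of the 10 that was higher in PC than in GC cells. IgE PC arrays had 6.69, 5.69, 6.34 and 6.35, and IgG1 PC arrays 6.75 and 5.79. GC arrays, close to the array medians, had 5.48, 5.01 and 5.33 (IgE), 5.56, 5.46 and 4.77 (GFP+ IgG1) and 5.56, 5.20 and 5.51 (GFP- IgG1), and naive arrays 5.69, 6.53 and 6.57. All PC and naive arrays lay above all GC arrays, the nearest being IgE PC replicate 2 and naive replicate 1. Tet2 was higher in IgE PC than in IgE GC cells by 1.00 ± 0.29 (adjusted p = 0.0183) and in IgG1 PC than in GFP+ IgG1 GC cells by 1.00 ± 0.35 (0.0494). It was lower in GC than in naive cells with a difference of -0.99 ± 0.31 (IgE, adjusted p = 0.0259), -0.998 ± 0.31 (GFP+ IgG1, 0.0271) and -0.84 ± 0.31 (GFP- IgG1, 0.0512, not called). Against naive cells the PC groups differed by 0.01 (IgE, 95% interval -0.61 to 0.62) and 0.00 (IgG1, -0.73 to 0.74).

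Several of these calls rested on single arrays. The IgE GC call was lost without IgE GC replicate 2 (-0.86, adjusted p = 0.104) or 3 (-1.02, 0.0569), or naive replicate 2 (-0.85, 0.0713) or 3 (-0.84, 0.0945). The GFP+ GC call was lost without GFP+ IgG1 GC replicate 3 (-0.75, 0.111) or naive replicate 2 or 3, and GFP- GC cells were called without naive replicate 1 (-1.13, 0.0168). The PC rise of Tet2 was lost in IgE cells without IgE GC replicate 2 (0.86, 0.0919) or IgE PC replicate 1 (0.85, 0.0587), and in IgG1 cells without any 1 GFP+ IgG1 GC array (0.76, 0.159 without replicate 3) or IgG1 PC replicate 1 (0.52, 0.443). When only the groups compared were fitted, the GFP+ GC call (0.0836) and the IgG1 PC call (0.116) were also lost. The direction was the same in all of these alternatives.

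Dnmt3a was not called in any GC group against naive cells, with differences of -0.35, -0.28 and -0.31 (adjusted p = 0.262, 0.394 and 0.29). IgE PC arrays had 6.97, 6.86, 6.40 and 7.02, and IgG1 PC arrays 6.38 and 5.82. GC arrays had 6.71, 6.70 and 6.49 (IgE), 6.58, 7.06 and 6.47 (GFP+ IgG1) and 6.68, 6.74 and 6.59 (GFP- IgG1), and naive arrays 7.27, 7.10 and 6.57. IgG1 PC arrays lay below all others, and the other groups overlapped. Its 1 call was in IgG1 PC, lower than in naive cells with a difference of -0.88 ± 0.25 (adjusted p = 0.0132), and -0.60 without IgG1 PC replicate 2 (0.19). The call was also lost when only the groups compared were fitted (0.142). Between PC and GC cells the values were 0.18 (IgE, adjusted p = 0.633) and -0.60 (IgG1, 0.102).

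Of 14 PRC1 genes, the second Polycomb complex, 1 was higher and 2, 3 and 3 lower in IgE, GFP+ IgG1 and GFP- IgG1 GC cells than in naive cells; Cbx7, a reader of methylated histone H3, was lower with a difference of -0.95, -0.82 and -1.01. In IgE PC 2 were higher and 3 lower than in IgE GC cells, and in IgG1 PC 3 were higher and 0 lower. Among all genes 26.7%, 23.3% and 29.8% were called in the GC groups against naive cells. Between PC and GC cells 23.6% (IgE) and 21.4% (IgG1) were called. These shares are also the background for the main counts of the lists below. Of 14 histone demethylases, deacetylases and BCL6 corepressors, 5, 6 and 6 were higher and 2 lower in each GC group than in naive cells. Hdac1, a deacetylase, was higher by 1.24, 1.27 and 1.26, and lower in PC than in GC cells with a difference of -1.68 (IgE) and -1.52 (IgG1). After a further quantile normalization these GC counts were 4, 3 and 2 higher and 2 lower each, and without the arrays that stood apart 3 were higher and 0 lower in GFP+ cells, and 4 higher and 1 lower in GFP- cells. Of 10 other chromatin genes of the germinal centre or of lymphoma, 6 were higher and 0 lower in every GC group. Nsd2, a histone H3 methyltransferase, was higher by 3.41, 3.24 and 3.43, and Hmgb2, a chromatin protein of dividing cells, by 3.50, 3.46 and 3.63. In PC 0 were higher and 5 (IgE) or 2 (IgG1) lower than in GC cells, and the histone methyltransferase Setd2 was lower with a difference of -2.14 and -2.40.

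The isotype comparisons ask whether IgE cells differ from IgG1 cells of the same stage. None of the 10 genes was called between IgE and GFP+ IgG1 GC cells, where limma called 0 of all genes (0%; 264 genes had an unadjusted p under 0.05). All 10 differences were within 0.27 of 0, and for Ezh2 the interval was -0.23 to 0.67. Between GFP+ and GFP- IgG1 GC cells none was called either (0%; 265 genes with an unadjusted p under 0.05), and all differences were within 0.21 of 0. Between IgE PC and IgG1 PC 0.959% of genes were called (0.785% higher, 0.174% lower), and none of the 10; the groups did not overlap for 2 of the 10 and 22.3% of all genes. Dnmt3a was the 1 gene with an interval clear of 0 there, 0.71 (0.21 to 1.21), with no overlap between 6.40 to 7.02 on IgE PC and 5.82 to 6.38 on IgG1 PC arrays, and an adjusted p of 0.189. Ezh2 was at -0.43 (-0.91 to 0.05) and Uhrf1 at 0.53 (-0.04 to 1.10). Whether the difference between PC and GC cells depended on the isotype was tested as an interaction. In it 0.0909% of genes were called (0.0661% higher, 0.0248% lower). None of the 10 was: Dnmt3a had 0.78 (adjusted p = 0.658) and Ezh2 -0.65 (0.747). With 2 IgG1 PC arrays these intervals stay wide.

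The second experiment asked whether the regulators differ between the zones of the germinal centre. Across GFP+ and GFP- cells together, 0 of the 10 genes were higher and 1 was lower in DZ than in LZ cells, where 6.91% of 11050 genes were called (3.92% higher, 3% lower). That gene was Tet2. DZ arrays had 5.23, 5.55 and 5.49 (GFP+) and 5.32, 5.22 and 5.28 (GFP-), against LZ arrays with 5.89, 5.99 and 6.33 (GFP+) and 6.63, 5.75 and 6.18 (GFP-). All 6 DZ arrays lay below all 6 LZ arrays, and the DZ arrays were close to the array median; the zones did not overlap for this 1 gene of the 10 and for 4.8% of all genes. The difference was -0.78 ± 0.14 (95% interval -1.09 to -0.47, adjusted p = 0.00653), and it was called in 18 of 18 alternatives. Tet2 passed the filter here, which needs 3 arrays above the array median, only because of its LZ arrays. Of the DZ arrays, 2 of GFP+ and 0 of GFP- cells lay above it. The call thus concerns a gene that entered the test through the group where it was higher. Within GFP- cells Tet2 was -0.91 ± 0.20 (adjusted p = 0.0345, where 2.59% of genes were called). This call was lost without any 1 DZ array, without LZ replicate 1 (-0.69, 0.094) or 3, or when only the groups compared were fitted (0.0918). Within GFP+ cells it was -0.65 ± 0.20 (0.178, where 1.22% were called). The interaction was 0.26 (-0.36 to 0.89, adjusted p = 0.988), with 0% of genes called (543 had an unadjusted p under 0.05).

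**Figure D4:**
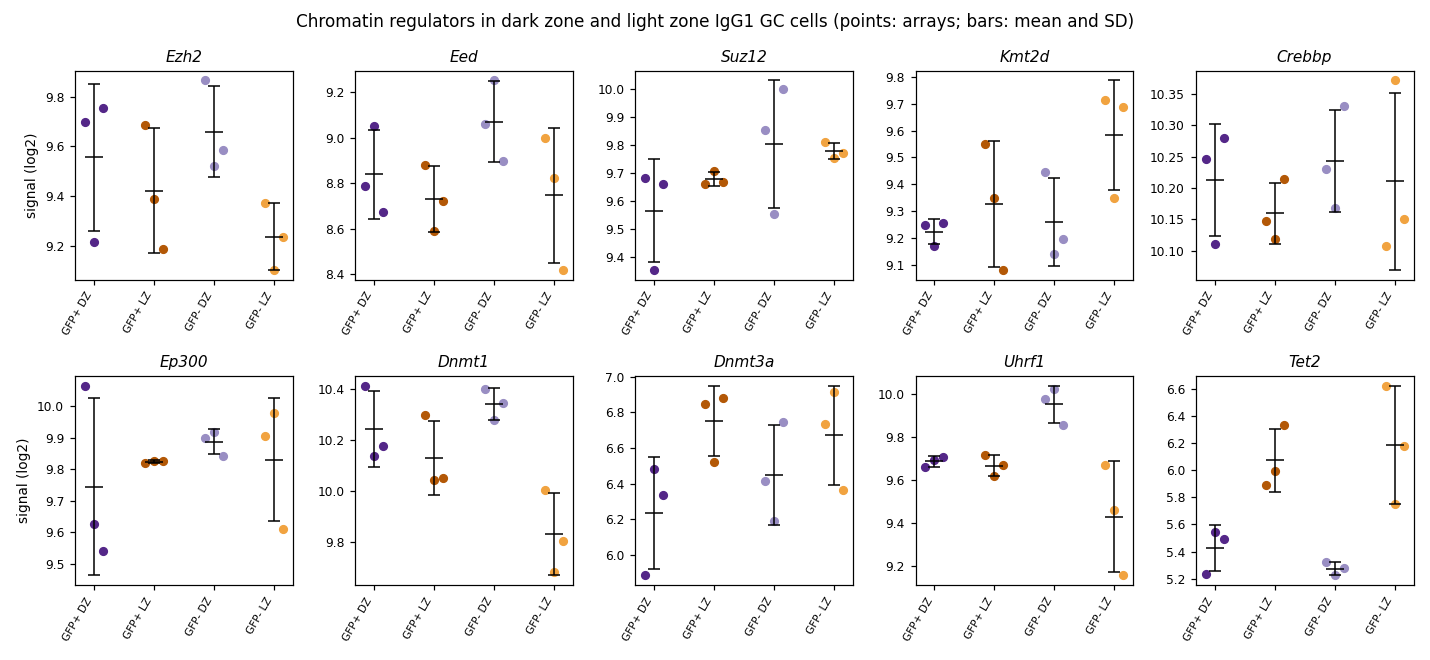
Log2 signal of the 10 genes on each array of the second experiment (points), with group mean and SD (bars), for GFP+ DZ, GFP+ LZ, GFP- DZ and GFP- LZ cells; each panel has its own axis, which does not start at 0. Tet2 is the gene whose 6 DZ arrays lie below its 6 LZ arrays, and Ezh2, Dnmt1 and Uhrf1 separate the zones in GFP- cells.

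The maintenance methylation genes and Ezh2 had higher means in DZ cells without reaching the threshold. Dnmt1 had 10.40, 10.28 and 10.34 in GFP- DZ cells, against 10.003, 9.68 and 9.80 in GFP- LZ cells, and 10.41, 10.14 and 10.18 in GFP+ DZ cells, against 10.30, 10.04 and 10.05 in GFP+ LZ cells. Uhrf1 had 9.98, 10.02 and 9.86 in GFP- DZ cells, against 9.67, 9.46 and 9.16 in GFP- LZ cells, and 9.66, 9.70 and 9.71 in GFP+ DZ cells, against 9.72, 9.62 and 9.67 in GFP+ LZ cells. The zones were apart in GFP- cells and overlapped in GFP+ cells for both genes, and likewise for Ezh2. In GFP- cells they were apart for 4 of the 10 genes (Ezh2, Dnmt1, Uhrf1 and Tet2) and 22.8% of all genes. In GFP+ cells they were apart for 2 of the 10 (Dnmt3a and Tet2) and 18% of all genes. Over both GFP states the difference was 0.31 ± 0.10 for Dnmt1 (adjusted p = 0.0809), 0.27 for Uhrf1 (0.131) and 0.28 for Ezh2 (0.236). In GFP- cells it was 0.51 ± 0.14 for Dnmt1 (0.0752) and 0.52 ± 0.14 for Uhrf1 (0.072), and in GFP+ cells 0.11 (0.826) and 0.02 (0.978). With a trended and robust variance prior, Dnmt1 was called over both GFP states (adjusted p = 0.044), and Dnmt1 and Uhrf1 in GFP- cells (0.0386 and 0.0427). The difference between the GFP states was -0.50 for Uhrf1 (unadjusted p = 0.0262, adjusted p = 0.986) and -0.40 for Dnmt1 (unadjusted p = 0.0663).

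The histone regulators lay close together in the zones. Differences between DZ and LZ cells over both GFP states were 0.22 for Eed, -0.04 for Suz12, -0.21 for Kmt2d, 0.04 for Crebbp and -0.01 for Ep300, and -0.37 for Dnmt3a (adjusted p = 0.164). Between GFP+ and GFP- cells over both zones no gene of the 10 was called (0% of all genes; 519 had an unadjusted p under 0.05), and all differences were within 0.17 of 0. Other PRC2 genes did differ between zones, with 2 of 8 higher and 1 lower in DZ cells, where 6.91% of all genes were called. Mtf2 was higher by 0.95 (adjusted p = 0.000472), with 10.44, 10.21 and 10.14 in GFP+ DZ and 10.35, 10.27 and 10.21 in GFP- DZ cells, against 9.34, 9.47 and 9.23 in GFP+ LZ and 9.53, 9.40 and 8.95 in GFP- LZ cells. All DZ arrays lay above all LZ arrays. Phf19 was higher by 0.62 (adjusted p = 0.0213) and Jarid2 lower with a difference of -0.60 (0.0438); these were called in 14 and 5 of 18 alternatives, and the losses of the Phf19 call came without GFP+ DZ replicate 1, GFP+ LZ replicate 2 or GFP- DZ replicate 1 or 3 (adjusted p = 0.052 to 0.054).

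Of the other lists, 0 of 14 PRC1 genes and 0 of 8 other acetyltransferases were called between zones, where 6.91% of all genes were called. Dpy30, a shared KMT2 subunit, was higher in DZ cells by 0.64 (adjusted p = 0.00669), the remodeller ATPase Smarca4 by 0.98 (0.000173) and the methyl-DNA reader Mbd2 by 0.49 (0.00678). The demethylase Kdm6b, which removes the PRC2 mark, was lower with a difference of -0.62 (0.00402). Of 24 cell cycle genes 6 were higher (median difference 0.38), against 3.92% of all genes, and Mki67 was higher by 0.63 (0.00197). The mean level of that list was 8.71 to 9.13 on GFP+ DZ and 8.89 to 9.17 on GFP- DZ arrays, against 8.52 to 8.73 on GFP+ LZ and 8.38 to 8.55 on GFP- LZ arrays. T cell markers averaged 4.95 to 5.71 on DZ and 5.45 to 5.91 on LZ arrays, and stromal markers 5.43 to 5.68 and 5.66 to 5.84. Their part in the zone differences was not tested.

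The genes most like each regulator were taken as the 3 with the highest Pearson r over the 18 arrays of the first experiment, among 12098 genes; the arrays share the stage differences above, so these are descriptions. For Ezh2 they were H2az1 (0.987), Mcm3 (0.982) and Mcm6 (0.982), for Dnmt1 Dck (0.983), Rassf6 (0.975) and Spag5 (0.971), and for Uhrf1 Smc4 (0.974), Stmn1 (0.973) and Hmces (0.970). Eed was most like Pds5a (0.980), its fellow PRC2 gene Mtf2 (0.980) and Cpsf2 (0.971), and Suz12 most like Bak1 (0.959), Cenpk (0.958) and Taf9 (0.958). Kmt2d was nearest to Ralgapb (0.944), Flna (0.941) and Macf1 (0.941), Crebbp to Pum2 (0.931), Camk2d (0.927) and Nckap1l (0.920), and Ep300 to Txndc16 (0.959), Gngt2 (0.945) and Sash3 (0.943). The lowest values were those of Tet2, with B2m (0.882), Colq (0.880) and Creld1 (0.876), and Dnmt3a, with Zfp263 (0.849), S1pr4 (0.806) and Rbm39 (0.806).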

How the data were processed

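Transcripts were measured on 30 Affymetrix Mouse Gene ST arrays of sorted B cells. The deposited values are log2 signals which, per the submitters' processing notes, the authors made by robust multi-array averaging (RMA) under R 2.15.2. Whether both experiments were normalized in 1 run, and any hybridisation batch, are not given in the sources used here. RMA scales arrays to each other, so a change in total RNA is not seen. The deposited values still differed in scale, with array medians of 5.28 to 5.47, and a further quantile normalization changed some calls. Groups of 2 to 4 arrays limit the precision.

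Of 34760 probe sets, 21640 had 1 symbol. A gene is its probe set with the highest mean, tested if above the array median on 2 arrays (first experiment, 12098 genes) or 3 (second, 11050). limma 3.58.1 in R 4.3.3 was fitted to all 18 or 12 arrays of an experiment, with p-values adjusted by Benjamini-Hochberg over all genes tested and called under 0.05, in 16 comparisons, 2 of them interactions. Errors are SD over arrays or SE of the fit. The scripts were tested on simulated data. All 10 genes are named in the comparisons, with up to 3 called genes per list chosen by size and marker genes. Of 5 cell cycle genes set for every comparison, Mki67, Mcm2 and Mcm3 are given for some comparisons. Cdk1 is given only among the flagged results, and Pcna is not given. In all, 164 genes in 17 lists were used. Members and lists were chosen with earlier results of these data known. Figures were drawn with matplotlib 3.10.9.

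Pairing by the replicate numbers of the titles was judged from the data, by a cutoff on the correlation of deviations. Only GFP+ against GFP- IgG1 GC cells passed it (0.109 to 0.154 in 3 pairs). Same-numbered arrays were also the best match in 3 of 3 pairs in DZ against LZ GFP+ cells (0.068 to 0.096), IgE PC against IgE GC cells (0.045 to 0.088) and IgE GC against naive cells (0.023 to 0.159). The main fits used no pairing. Alternatives were no filter, the mean of all probe sets, a further quantile normalization, only the groups compared, a trended and robust variance prior, a replicate block and each array left out. After seeing the data, leaving out the arrays that stood apart and the other probe set of Eed and Kmt2d were added.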

Additional observations from a re-analysis of the deposited data

Results flagged for a closer look

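In the 4 IgE PC arrays, 3 of the genes named above had 1 array far from the other 3. The measure is the gap of the outermost array to its nearest neighbour over the whole range of the group, set against Dixon's 95% critical value for 4 arrays, which chance alone passes in about 1 of 20 groups. H2az1, a histone variant gene, had 0.881, with 11.82 on replicate 3 and 11.32, 11.38 and 11.32 on replicates 1, 2 and 4. Cdk1 had 0.886, with 7.66 on replicate 1 and 8.58, 8.47 and 8.50 on the others. Kmt2a had 0.900, with 8.93 on replicate 3 and 9.07, 9.07 and 9.06 on the others. None of the 10 chromatin regulators passed this value.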

How the results depend on the processing

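Of 2400 values of the 10 genes under alternatives, 2296 kept their side of the threshold and, where called, their direction; 70 called values lost the call, 31 gained it and 3 turned. In 133 values that were called in neither setting the sign differed. The 3 that turned were Eed with its dim second probe set: -0.31 in GFP+ and -0.54 in GFP- IgG1 GC against naive cells, and 0.12 in IgG1 PC against GFP+ IgG1 GC cells. Naive arrays agreed less with each other (r 0.891 to 0.927) than arrays of the GC groups did (0.949 to 0.975), and the main fits share 1 spread over all groups. Fitting only the groups compared takes the spread from those groups alone and from fewer arrays. Which of these changed the counts was not tested. That fit gave 2037, 1527 and 2061 called genes in IgE, GFP+ and GFP- GC against naive cells (3230, 2813 and 3606 with all arrays). It gave 1670 genes and 3 of the 10 in IgG1 PC against naive cells (3540 and 6), and 4 of the 10 in IgG1 PC against GC cells (7). It gave 1 gene in GFP+ against GFP- GC cells (0), 0 in IgE against IgG1 PC (116), 1 in the isotype interaction (11), 17 in DZ against LZ GFP+ (135), and 144 genes and 0 of the 10 in GFP- (286 and 1); it does not apply to comparisons that use all 4 zone groups. A trended and robust prior called 2 of the 10 between zones and 3 in GFP- cells (1 each). Without the arrays that stood apart, IgE against IgG1 PC had 227 genes.

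With the replicate number as a block (a pairing the design does not give), IgE against IgG1 PC had 72 genes, the isotype interaction 5, and DZ against LZ in GFP- cells 2 of the 10; the block changed no call of the 10 genes in GFP+ against GFP- GC cells. Leaving out 1 array gave 480 to 813 genes between zones (764), 101 to 225 genes and 0 to 1 of the 10 in GFP- (286), 51 to 88 in GFP+ (135), 76 to 253 in IgE against IgG1 PC, 2 to 37 in the isotype interaction, and 4 to 7 of the 10 in IgG1 PC against GC cells. A further quantile normalization moved the median of all genes by -0.108 (IgE GC) and -0.128 (GFP- GC against naive cells); higher and lower calls were 1836 and 1113 in IgE GC (2335 and 895 before), 60 and 24 in IgE against IgG1 PC (95 and 21), 356 and 410 between zones (433 and 331), and 131 and 153 in GFP- (176 and 110). Low signals limit Tet2, near the array median in GC cells.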
